A study of Homo sapiens with 3 samples.

Results

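COMPASS complexes methylate lysine 4 of histone H3 (H3K4). The 9 genes described here encode subunits of these complexes, and they were taken by name from 20163 protein-coding genes. They comprised the shared core subunits WDR5, RBBP5, ASH2L and DPY30, the catalytic subunits KMT2A (MLL1), KMT2B, SETD1A and SETD1B, and the gene of menin, MEN1. The data were ChIP-seq peak lists of RUNX2 and CBFB from SAOS2 cells, an untreated human osteosarcoma cell line that lacks p53. RUNX2 was precipitated with a custom made antibody and CBFB with a commercial one, and the series also held an input library, which was not analysed here. There was 1 library per antibody and no replicate, so no test was possible between antibodies. Every peak of both lists whose nearest edge lay within 25 kb of a gene body was assigned to that gene. All coordinates are GRCh37 (hg19). The peak lists hold no expression values, so the cell type was not checked against markers.

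H3K4 trimethylation marks the start sites of active genes. WDR5, RBBP5, ASH2L and DPY30 form a module that activates the catalytic subunit. KMT2A and KMT2B are tethered to chromatin with menin, and SETD1A and SETD1B are the main source of bulk H3K4 trimethylation. RUNX2 binds DNA directly and directs osteoblast differentiation, and CBFB is the partner that strengthens its DNA binding. The study examined menin, MLL1 and WDR5 protein at a RUNX2 site. The question here was whether the genes of these proteins themselves lay beside RUNX2 and CBFB peaks.

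A RUNX2 peak was found at 5 of the 9 genes, namely WDR5, RBBP5, DPY30, KMT2A and KMT2B, against 36.0% of all protein-coding genes. A CBFB peak was found at 4 of the 9, these genes without RBBP5, against 62.2%. ASH2L, MEN1, SETD1A and SETD1B had no peak of either list, as did 36.9% of protein-coding genes. Only KMT2A and RBBP5 had a RUNX2 peak at their own promoter, against 16.8%, and only KMT2A had a CBFB peak there, against 37.9%. Each gene stands for 11.1 percentage points, so several of these counts were close to the background. At the other 3 genes the peaks lay beyond the gene body or at the start site of a neighbouring gene.

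**Figure D1:**
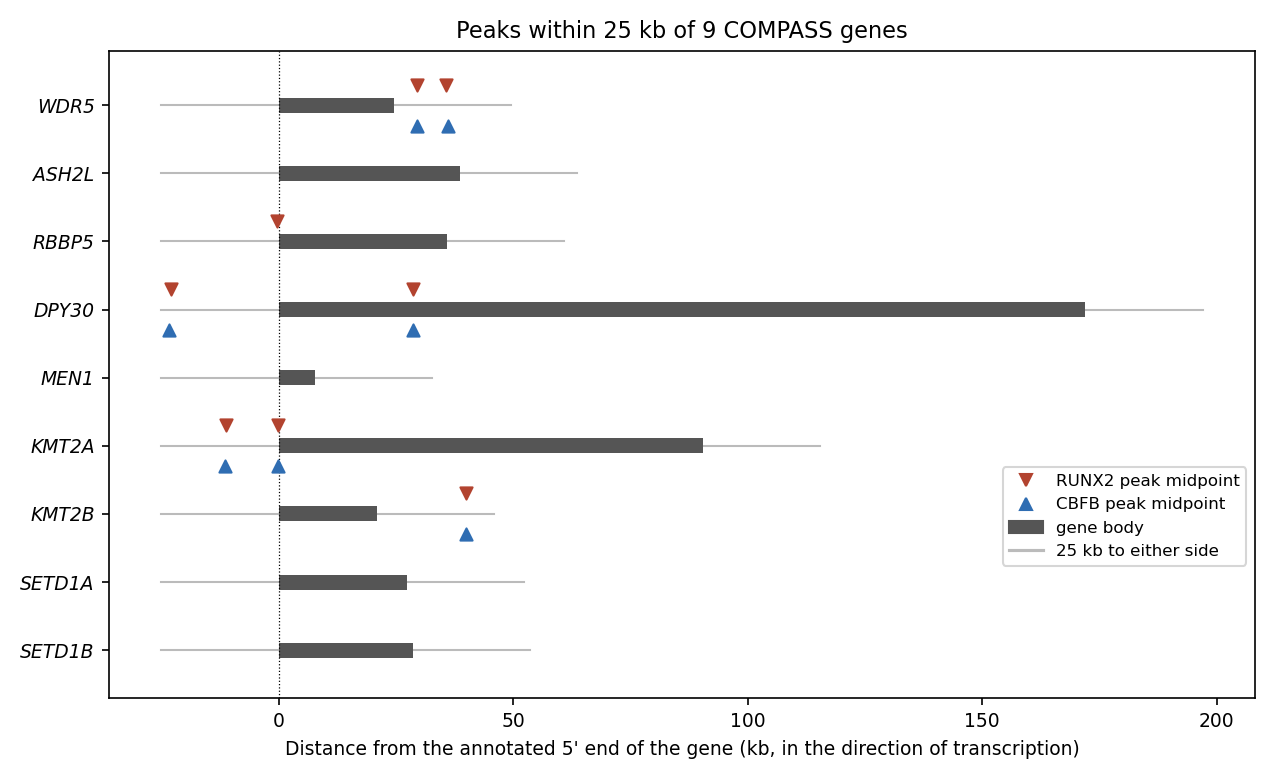
Position of RUNX2 (red, above) and CBFB (blue, below) peak midpoints near the 9 genes, as distance in kb from the annotated 5' end of each gene in the direction of transcription. Grey bars are gene bodies and thin lines reach 25 kb to either side. Only KMT2A and RBBP5 carry a symbol at 0, and ASH2L, MEN1, SETD1A and SETD1B carry none.

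The sequences at the promoter peaks are shown first because neither held the RUNX core (TGTGGT, or ACCACA on the other strand). Each sequence is the 201 bp centred on the RUNX2 peak midpoint, read in the direction of the gene. Capitals mark the GC box (GGGCGG or CCGCCC) and the ETS motif (CCGGAA or TTCCGG). Both windows lay wholly upstream of the annotated gene start and touched 0 annotated exons.
KMT2A promoter (chr11:118306876-118307076, plus strand): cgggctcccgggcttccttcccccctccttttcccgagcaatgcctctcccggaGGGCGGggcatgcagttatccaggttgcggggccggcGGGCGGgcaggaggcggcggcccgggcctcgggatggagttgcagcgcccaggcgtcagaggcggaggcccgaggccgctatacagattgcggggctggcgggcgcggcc
RBBP5 promoter (chr1:205091300-205091500, minus strand): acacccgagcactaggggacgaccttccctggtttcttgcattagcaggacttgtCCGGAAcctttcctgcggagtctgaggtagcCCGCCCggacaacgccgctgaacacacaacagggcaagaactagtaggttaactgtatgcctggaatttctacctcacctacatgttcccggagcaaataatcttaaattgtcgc

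The KMT2A window held 2 GC boxes and no ETS motif, with a GC content of 74.6%. The RBBP5 window held 1 GC box and 1 ETS motif, with a GC content of 52.2%. The median GC content of such windows was 49.8% over the RUNX2 list. A GC box was present in 13.7% of all RUNX2 windows and an ETS motif in 6.1%. Those windows were mostly not at promoters. Of 15860 protein-coding promoters, read from 250 bases before to 50 after the start, 58.5% held a GC box and 22.8% an ETS motif. These promoter windows were longer than the peak windows and placed differently, so the shares are only a rough guide. Neither promoter peak held the RUNX core anywhere along its length.

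Outside the promoters of KMT2A and RBBP5, 5 copies of the RUNX core lay in a RUNX2 peak and in the CBFB peak that overlapped it. They are shown with 27 bases to either side, on the strand where the core reads TGTGGT, with the core in capitals.
WDR5 side, toward RNU6ATAC, first core (chr9:137029781-137029840, minus strand): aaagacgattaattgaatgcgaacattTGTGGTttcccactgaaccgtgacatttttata
WDR5 side, toward RNU6ATAC, second core (chr9:137030127-137030186, plus strand): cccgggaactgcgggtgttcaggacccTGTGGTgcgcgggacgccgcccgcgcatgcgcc
WDR5 side, toward ENSG00000273473 (chr9:137036091-137036150, minus strand): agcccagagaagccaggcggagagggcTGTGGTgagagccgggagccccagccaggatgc
DPY30 body, MEMO1 start (chr2:32236334-32236393, plus strand): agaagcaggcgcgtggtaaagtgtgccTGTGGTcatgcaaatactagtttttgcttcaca
KMT2A upstream, ATP5MG intron (chr11:118295672-118295731, plus strand): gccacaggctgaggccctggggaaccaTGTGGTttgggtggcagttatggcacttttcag

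In 2 of these 5 copies the core was followed by a further T, as in the longer RUNX site. These were the first core toward RNU6ATAC and the core in the ATP5MG intron. A further 4 copies lay in CBFB peaks outside the RUNX2 peak, of which 3 were in the CBFB peak toward ENSG00000273473 and 1 was in the CBFB peak in ATP5MG.

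Among the catalytic subunits, KMT2A had the most peaks. KMT2A (ENSG00000118058, chromosome 11, 118307171 to 118397547, plus strand) encodes the MLL1 methyltransferase, which maintains HOX gene expression. It had 2 RUNX2 and 2 CBFB peaks, and each RUNX2 peak overlapped a CBFB peak. The promoter RUNX2 peak (118306628 to 118307324) had a score of 135.0, where the score is the value of the authors' peak caller MACS, read here as a p-value on a -10 times log10 scale. This score was above or level with 77.2% of the RUNX2 list. Its midpoint lay 195 bp upstream of the nearest KMT2A start site, in an intron of the overlapping gene model ENSG00000285827. The RUNX2 peak lay wholly inside the CBFB peak (118306607 to 118307511), whose score of 218.86 was above or level with 73.1% of the CBFB list. The midpoints of the pair were 83 bp apart. At this promoter the RUNX2 and CBFB peaks thus held similar positions in their own lists. The CBFB percentile minus the RUNX2 percentile was -4.14 points. Of all 9365 overlapping pairs, 89.6% had a gap at least this large, and the median gap was 19.6 points. A RUNX2 peak this high in its list leaves little room for a large gap. Pairs with a similar RUNX2 percentile were not compared, so whether the CBFB position was unusual was not tested.

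The second pair at KMT2A lay in an intron of ATP5MG, which encodes a subunit of mitochondrial ATP synthase. The RUNX2 peak (118295560 to 118296300, score 82.02, percentile 48.1) had its midpoint 11241 bp upstream of the nearest KMT2A start site. The CBFB peak (118295272 to 118296299) had a score of 156.21, at percentile 61.0. KMT2A was the protein-coding gene with the nearest start site for both of these peaks. Their shared RUNX core lay 84 bp from the CBFB midpoint and 228 bp from the RUNX2 midpoint.

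KMT2B (ENSG00000272333, chromosome 19, 36208875 to 36229781, plus strand), the paralog of KMT2A, had 1 peak of each list. Both lay beyond its 3' end, 18608 bp away for RUNX2 and 18274 bp away for CBFB. The RUNX2 peak (36248389 to 36249335) had its midpoint in a UTR exon of HSPB6, 118 bp downstream of the HSPB6 start site. HSPB6 encodes a small heat shock protein. The score of 193.4 was the highest of the RUNX2 peaks near the 9 genes and stood at percentile 88.7. The CBFB peak (36248055 to 36249423) had a score of 348.5, at percentile 85.1. Neither peak held a RUNX core. The strongest RUNX2 peak assigned to the 9 genes was therefore at the start of another gene.

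Among the core subunits, RBBP5 was the gene with a RUNX2 peak and no CBFB peak. RBBP5 (ENSG00000117222, chromosome 1, 205055270 to 205091143, minus strand) had 1 RUNX2 peak (205091003 to 205091798) with its midpoint 257 bp upstream of the gene start. The score of 60.29 stood at percentile 21.4, close to the lowest score of 50 in the list. No CBFB peak overlapped it, and the nearest CBFB peak was 53.9 kb from the gene body, in an intron of DSTYK. A RUNX2 peak at the own promoter was found at 3397 of the 20163 protein-coding genes. Of these 3397 genes, 84 had no CBFB peak within 25 kb, which is 0.417% of all protein-coding genes.

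WDR5 (ENSG00000196363, chromosome 9, 137000487 to 137025090, plus strand), which reads the H3 tail and links the module to the catalytic subunit, had 2 RUNX2 and 2 CBFB peaks. All of them were intergenic and lay beyond its 3' end. The nearer RUNX2 peak (137029663 to 137030432) had a score of 54.84, at percentile 10.8, and the overlapping CBFB peak (137029346 to 137030644) had a score of 148.14, at percentile 58.9. The RUNX2 midpoint lay 361 bp upstream of RNU6ATAC, the gene of an RNA of the minor spliceosome, which was named after its position was seen. The nearest protein-coding start site was that of WDR5 itself, 28843 bp away.

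Of the 7 overlapping pairs near the 9 genes, the farther WDR5 pair showed the widest gap between the lists. The RUNX2 peak (137035776 to 137036637) had a score of 57.35, at percentile 16.1. The CBFB peak (137035188 to 137038058) was 2871 bp wide and had a score of 758.08, at percentile 96.0. The RUNX2 peak covered 30.0% of the CBFB peak, with midpoints 417 bp apart. The percentile of the CBFB peak exceeded that of the RUNX2 peak by 79.8 points. A gap as large or larger was found in 130 of the 9365 overlapping pairs, or 1.39%. So wide a gap is possible only where the RUNX2 peak stands low in its list, as here. At the nearer WDR5 pair the gap was 48.1 points, and 17.3% of all pairs had a gap at least as large. The CBFB percentile was also the higher one over all pairs, with a median gap of 19.6 points, so the direction of the gap was not particular to WDR5.

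DPY30 (ENSG00000162961, chromosome 2, 32092878 to 32264874, minus strand) encodes the smallest core subunit. Its annotated body of 172.0 kb is set by a non-coding transcript that runs across MEMO1. The stronger RUNX2 peak (32235797 to 32236700) had a score of 164.56, at percentile 84.2, and its midpoint lay in a UTR exon of MEMO1, 51 bp downstream of the MEMO1 start site. MEMO1 encodes a protein known for its part in ErbB2-driven cell motility. The overlapping CBFB peak (32235789 to 32236795) had a score of 242.38, at percentile 76.2. It lay 12534 bp from the nearest DPY30 start site. The other pair lay upstream of DPY30, at the start of SPAST, which encodes the microtubule-severing protein spastin. There the RUNX2 peak (32287379 to 32288087) had a score of 56.93, at percentile 15.5, and the CBFB peak (32287381 to 32288906) had a score of 176.94, at percentile 65.8. Neither pair was at the DPY30 promoter.

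**Figure D2:**
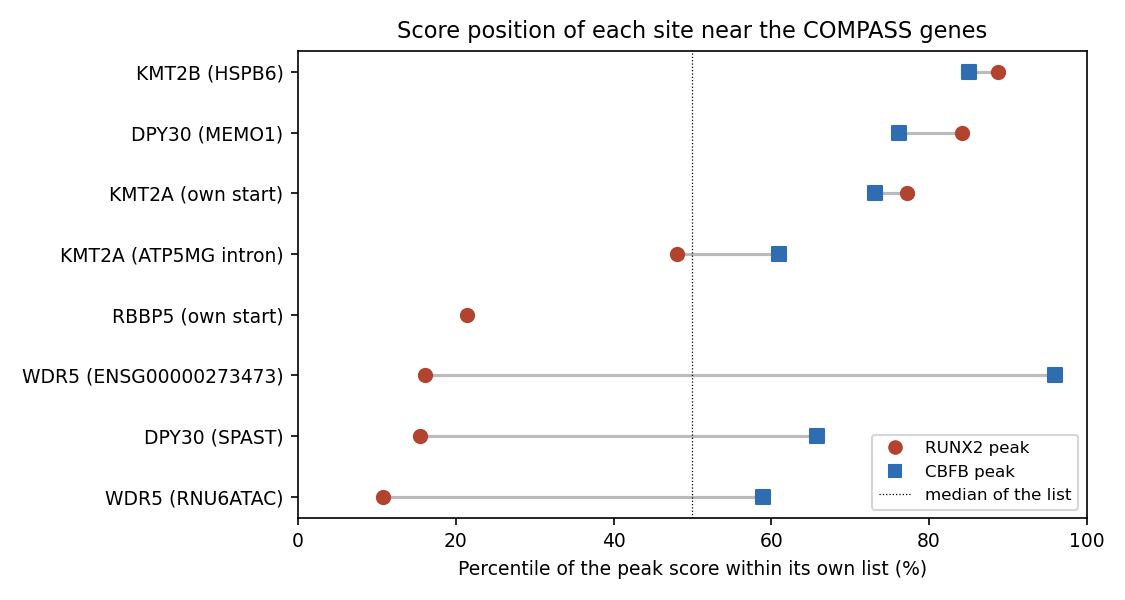
Percentile of the score within its own list for each RUNX2 peak (red circles) and its overlapping CBFB peak (blue squares), with the gene and the site in the row label and the median of the list as a dotted line. All 7 CBFB peaks lie above their list's median and 3 of the 8 RUNX2 peaks do, and the CBFB percentile exceeded the RUNX2 percentile by a median of 19.6 points over all 9365 overlapping pairs of the lists, which differ in length.

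Over all sites, the 8 RUNX2 peaks had scores from 54.84 to 193.4 with a median of 71.2, against a median of 84.1 over the 9941 RUNX2 peaks. Of the 8, 3 were above the median of the list. The 7 CBFB peaks had scores from 148.14 to 758.08 with a median of 219, against 121 over the 27246 CBFB peaks, and all 7 were above the median of the list. All 7 also overlapped a RUNX2 peak, and in overlapping pairs of the whole lists the CBFB percentile was the higher by a median of 19.6 points. Scores rise with sequencing depth, which is unknown here, and score levels were therefore not compared between the lists. The midpoints of the 7 overlapping pairs were 44 to 417 bp apart with a median of 123 bp, and the median over all 9365 pairs was 96 bp.

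Within 25 kb of these genes, the overlap of the lists was close to complete in both directions. CBFB was present at 7 of the 8 RUNX2 sites (1 bp shared or more), and the share over the whole list was 94.2%. The study reported a clearly lower share of RUNX2 peaks overlapping CBFB peaks, and its text does not state the rule used for an overlap. All 7 CBFB peaks overlapped a RUNX2 peak, and the share over the whole list was 33.8%. No CBFB peak without RUNX2 lay within 25 kb of any of the 9 genes, but this depended on the reach. The nearest CBFB peaks of MEN1, SETD1A, SETD1B, RBBP5 and ASH2L lay farther away, and none of them overlapped a RUNX2 peak. Within 50 kb there were 11 CBFB peaks and still 8 RUNX2 peaks.

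The count of RUNX cores near the midpoints depended on the form of the motif. With TGTGGT, 1 of the 8 RUNX2 peaks held a match within 100 bp of the midpoint, the farther peak beside WDR5, against 43.2% of the whole RUNX2 list. A match was present in 2 of the 7 CBFB peaks, at MEMO1 and in ATP5MG, against 41.6% of the CBFB list. With the looser form TGYGGT, where Y is C or T, 6 of the 15 peaks held a match, with overlapping peaks counted separately. The shares over the lists were 53.3% of RUNX2 and 49.4% of CBFB windows. When the whole peak was searched, 4 of the 8 RUNX2 peaks and 4 of the 7 CBFB peaks held a core, against 78.1% and 80.9% of the lists. The peaks without any core were those at the starts of KMT2A, RBBP5, SPAST and HSPB6. These were also 4 of the 5 RUNX2 peaks that lay within 1 kb of a protein-coding start site, and the fifth was at MEMO1. Among all RUNX2 peaks within 25 kb of a protein-coding gene, 28.8% had their midpoint within 1 kb of such a start site. For CBFB the count was 4 of 7, against 28.0%. With so few peaks, each of them moves a share by more than 10 percentage points.

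RefSeq promoters (GRCh38.p14, 250 bases before to 50 after the start) were matched for 6 of the 9 genes, without ASH2L, DPY30 and SETD1B. None of the 6 held the RUNX core, and 10.9% of 15860 protein-coding promoters did. The GC box was present at KMT2A, KMT2B, MEN1 and SETD1A, and in 58.5% of all promoters. The ETS motif was present at KMT2A and WDR5, and in 22.8% of all promoters. RBBP5 held neither motif. For KMT2A and RBBP5 this differs from the peak windows above, which cover other bases. The absence of these letters from a window says nothing about binding of the factor.

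The remaining genes lacked peaks altogether. MEN1 (ENSG00000133895, chromosome 11, 64570982 to 64578766, minus strand), which encodes menin, the adaptor of KMT2A and KMT2B, is the shortest of the 9 genes, with a body of 7.79 kb. Its nearest CBFB peak was 43.4 kb away and its nearest RUNX2 peak 67.1 kb away, and both were at the start of EHD1, a gene of endocytic recycling. The RUNX2 peak there (64645881 to 64646851) had a score of 85.39, at percentile 51.1, and the CBFB peak (64622206 to 64623293) a score of 70.58, at percentile 21.6. These were separate sites, at different annotated start sites of EHD1. The RUNX2 peak overlapped another CBFB peak, whereas the CBFB peak nearest to MEN1 overlapped no RUNX2 peak.

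SETD1A (ENSG00000099381, chromosome 16, 30968615 to 30995985, plus strand) had its nearest CBFB peak at 48.3 kb, at the start of STX4 (score 81.57, percentile 29.9), which encodes a syntaxin of the plasma membrane. Its nearest RUNX2 peak was at 133 kb, at the start of KAT8 (score 54.32, percentile 9.64), which encodes the MOF histone acetyltransferase. SETD1B (ENSG00000139718, chromosome 12, 122241915 to 122270562, plus strand) had its nearest CBFB peak at 44.8 kb (score 57.98, percentile 9.78) and its nearest RUNX2 peak at 86.5 kb (score 64.15, percentile 27.6), both in introns of TMEM120B. The nearest peaks of SETD1A and SETD1B were all below the median score of their list.

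ASH2L (ENSG00000129691, chromosome 8, 37963011 to 38001594, plus strand), a core subunit that binds DPY30, was the farthest from any peak. The nearest CBFB peak was 214 kb away and the nearest RUNX2 peak 234 kb away, both in RAB11FIP1, a gene of vesicle recycling. A nearer RUNX2 peak was present at 75.6% of protein-coding genes and a nearer CBFB peak at 89.5%. The median distance to the nearest peak was 62.9 kb for RUNX2 and 6.74 kb for CBFB over all protein-coding genes.

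**Figure D3:**
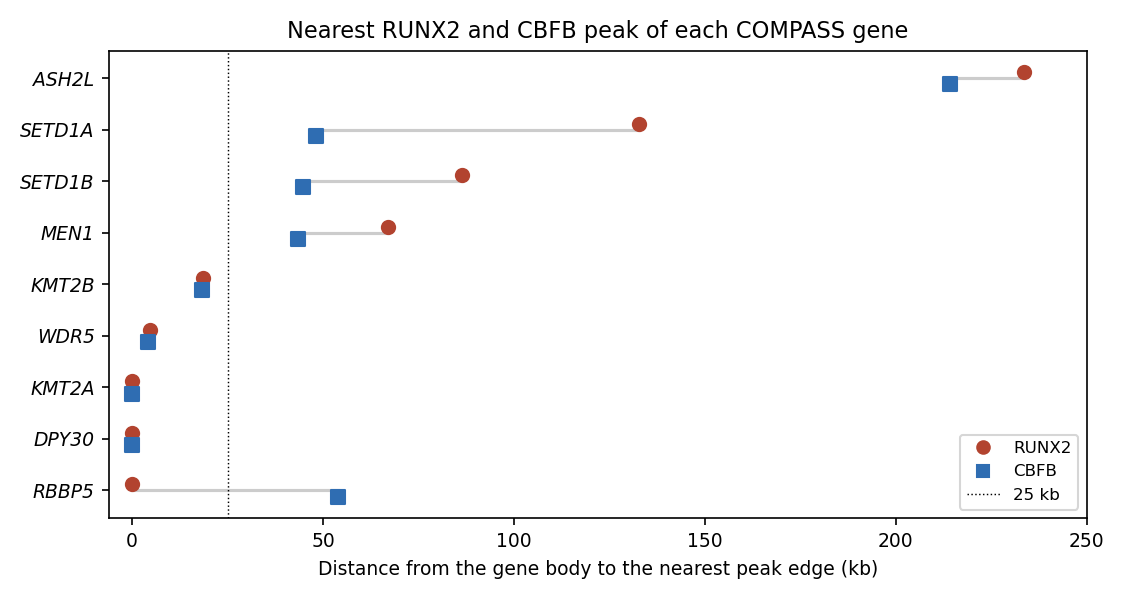
Distance in kb from each gene body to the nearest edge of a RUNX2 peak (red circles) and of a CBFB peak (blue squares), with 25 kb as a dotted line. ASH2L stands at 234 kb for RUNX2 and 214 kb for CBFB, and RBBP5 is the only gene with RUNX2 at 0 and CBFB beyond 25 kb.

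These counts were then set beside the same counts over all protein-coding genes. A RUNX2 peak lay within 25 kb of 5 of the 9 genes (55.6%), against 36.0% of protein-coding genes. A CBFB peak lay within 25 kb of 4 of the 9 (44.4%), against 62.2%. No peak of either list was found at 4 of the 9 (44.4%), against 36.9%. At the own promoter, defined as a peak midpoint within 5 kb of any annotated start site of the gene, RUNX2 was present at 2 of the 9 (22.2%), against 16.8%, and CBFB at 1 of the 9 (11.1%), against 37.9%. Each gene stands for 11.1 percentage points, so the RUNX2 promoter count and the count without peaks were each within 1 gene of the background. The RUNX2 count within 25 kb and the CBFB counts were within 3 genes of it. The median body of the 9 genes was 28.6 kb and that of all protein-coding genes 27.2 kb.

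The counts changed with the distance allowed. Within 5 kb of the gene body, a RUNX2 peak was present at 4 of the 9 genes, against 25.2% of protein-coding genes. A CBFB peak was present at 3, against 48.4%. DPY30 is among them through peaks at the MEMO1 start, inside the 172.0 kb annotated body that is set by a non-coding transcript. Within 50 kb the RUNX2 count was still 5, against 46.0%, and the CBFB count was 7, against 71.8%, as MEN1, SETD1A and SETD1B came within reach. Within 100 kb a RUNX2 peak was present at 7 genes, against 59.2%, and a CBFB peak at 8, against 81.4%, and ASH2L was the gene still without a CBFB peak.

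Finally, 13 further subunits and partners of H3K4 methyltransferase complexes were examined in the same way (KMT2C, KMT2D, KDM6A, PAXIP1, PAGR1, NCOA6, CXXC1, WDR82, HCFC1, HCFC2, PSIP1, BOD1 and BOD1L1). A RUNX2 peak lay within 25 kb of 4 of them (30.8%), against 36.0% of protein-coding genes. A CBFB peak lay within 25 kb of all 13, against 62.2%. At the own promoter, RUNX2 was present at 3 (23.1%), against 16.8%, and CBFB at 9 (69.2%), against 37.9%. The genes with a RUNX2 peak at the own promoter were PSIP1, HCFC2 and KMT2D. PSIP1 encodes LEDGF, which tethers menin and KMT2A to chromatin. Its RUNX2 peak had a score of 187.12, at percentile 87.8, 241 bp upstream of a start site, and overlapped a CBFB peak with a score of 303.7. HCFC2, which encodes a host cell factor paralog, had a RUNX2 peak with a score of 54.23, at percentile 9.43, 7 bp upstream of its start site, and an overlapping CBFB peak with a score of 89.02. KMT2D, a catalytic subunit active at enhancers, had a RUNX2 peak with a score of 89.1, at percentile 54.1. It lay 4175 bp downstream of an internal KMT2D start site, at the 3' end of the gene body, and only 115 bp upstream of the start site of PRKAG1. The 9 genes and the 13 further genes thus differed in the count of genes beside CBFB, with 4 of 9 against 13 of 13. This difference rested largely on low-scoring peaks and was not tested. KMT2C, PAXIP1, PAGR1, CXXC1, HCFC2 and BOD1L1 had only CBFB peaks below the median score of the list. With peaks at or above that median, the count for the 9 genes was still 4. Of the 13 further genes, only KMT2D, KDM6A, NCOA6, WDR82, HCFC1, PSIP1 and BOD1 kept a CBFB peak. At that limit the groups thus lay closer together, and the share of all protein-coding genes is not reported here. The median body of the 13 genes was 42.0 kb.

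**Figure D4:**
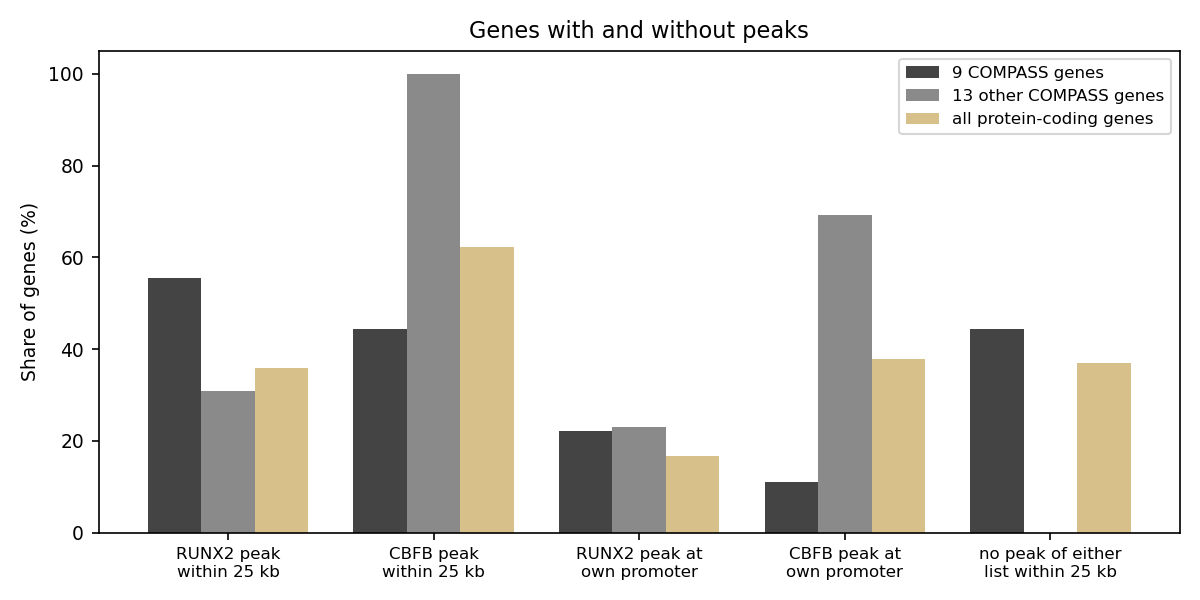
Share of genes (%) with a RUNX2 or a CBFB peak within 25 kb or at the own promoter, and with no peak, for the 9 COMPASS genes, the 13 other COMPASS genes and all 20163 protein-coding genes. The CBFB bars within 25 kb stand at 44.4%, 100% and 62.2%, and the RUNX2 bars at 55.6%, 30.8% and 36.0%.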

How the data were processed

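RUNX2 and CBFB ChIP-seq and an input library were made from SAOS2 cells, with 1 library each. Per the submitters' processing notes, CASAVA 1.8.2, MACS 1.4.1 and the hg19 build were used. The aligner, the calling limit and the sequencing depth are, like the control given to MACS, not given in the sources used here. The deposited lists of the authors give the position of each peak and a score, which was read as the MACS peak score. Scores were used only to rank peaks within a list. The reference was GRCh37, whose coordinates are those of hg19, with GENCODE release 44 mapped to it.

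Peaks were assigned within 25 kb of the gene body by their nearest edge, and promoters reached 5 kb to either side of each start site, as in the study's own assignment. Peaks were overlapping when they shared at least 1 bp. Motifs were searched on both strands within 100 bp of the midpoint. Background shares covered 20163 protein-coding genes on chromosomes 1 to 22, X and Y, or all peaks there (13 RUNX2 and 42 CBFB peaks on other contigs were left out of the motif and start site counts). All 9 genes are named with every peak, together with the protein-coding gene of the nearest start site and, of the further genes, those with a RUNX2 peak at the own promoter. The 9 genes and the further gene lists were chosen with earlier results of these data known. The counting steps were tested on simulated peaks with known positions. Python 3.11.15, numpy 2.4.6, pandas 2.3.3, pysam 0.24.0 and matplotlib 3.10.9 were used.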

Additional observations from a re-analysis of the deposited data

How the results depend on the processing

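Of 40 recomputed counts under 14 settings, 29 stayed within 1.5 times the reported count and 11 moved. With a reach of 5 kb or 10 kb, 4 RUNX2 and 3 CBFB peaks lay near the 9 genes, in place of 8 and 7, since a shorter reach admits fewer peaks. With a reach of 50 kb, 11 CBFB peaks lay near 7 of the genes. With only peaks at or above the median score of their list, 3 RUNX2 peaks lay near 3 of the genes (KMT2A, KMT2B and DPY30), and 1 gene, KMT2A, kept a RUNX2 peak at its own promoter, as the RBBP5 peak fell below the limit. The RUNX core was found in 3 of the 15 peaks near the midpoint and in 8 when the whole peak was searched. With the motif TGYGGT, which 53.3% of RUNX2 and 49.4% of CBFB windows held, the count was 6. All 7 CBFB peaks overlapped a RUNX2 peak, so most sites are counted in both lists. When the shared stretch had to reach 50% of both peaks, 5 of the 8 RUNX2 peaks were shared, in place of 7. The count was also 5 with midpoints within 200 bp, and with as many CBFB peaks as RUNX2 peaks. The shares of all genes and of the whole lists under the median-score and overlap limits are not reported here. These counts therefore have no background beside them. No paired analysis was possible because there was 1 library per antibody.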

Other observations

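The enzymes that remove H3K4 methylation were examined as a last group, KDM5A, KDM5B, KDM5C, KDM1A and KDM1B. All 5 had a RUNX2 peak within 25 kb, against 36.0% of protein-coding genes, and all 5 a CBFB peak, against 62.2%. All 6 of their RUNX2 peaks overlapped a CBFB peak, as did 94.2% of the whole RUNX2 list. RUNX2 was at the own promoter of 2, KDM5C and KDM1A, against 16.8% of protein-coding genes. KDM1A encodes LSD1, which removes mono- and dimethylation. Its promoter RUNX2 peak had a score of 226.68, at percentile 92.1, 19 bp downstream of a start site, while the overlapping CBFB peak had a score of 127.85, at percentile 52.4. KDM5C encodes a demethylase of trimethylated H3K4. Its promoter RUNX2 peak had a score of 184.83, at percentile 87.4, and held 3 copies of the RUNX core, while the CBFB peak had a score of 239.24, at percentile 75.8. Their median body was 68.5 kb, longer than the 28.6 kb of the 9 methyltransferase genes, and the difference in counts was not tested.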
